A study of Mus musculus with 2 samples.

Results

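The bile duct fate genes are 10 mouse genes named for their part in, or use as markers of, the step at which embryonic liver cells turn towards bile duct. They were taken by symbol from the GENCODE M21 annotation and all 10 were found among the 55536 Ensembl genes of the gene quantification. They comprise the transcription factor genes Onecut1, Onecut2, Sox9 and Sox4, the secreted glycoprotein gene Spp1, the keratin genes Krt7 and Krt19, the adhesion gene Epcam, the Notch ligand gene Jag1 and the Notch receptor gene Notch2. Polyadenylated RNA was sequenced from whole liver of B6NCrl mouse embryos aged 12.5 days, with no genetic change or treatment named in the labels. The study had 1 group of 2 libraries. Replicate 1 came from a pool of 120 embryos of both sexes and replicate 2 from a pool of 88. The samples are of a single tissue, stage and genotype, so the genes are described across the genome and between the pools, and no p-value was computed.

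The intrahepatic bile ducts arise from hepatoblasts, the shared precursors of hepatocytes and duct cells, which settle around the portal vein in a layer called the ductal plate. Jagged1 on the portal mesenchyme is bound by Notch2 on neighbouring hepatoblasts, and the cleaved receptor then acts with Rbpj in the nucleus to raise Hes and Sox9 expression. Onecut1 and Onecut2 limit TGF-beta and activin signalling in the lobule, and the keratins, Epcam and osteopontin mark the cells as they become duct epithelium. The ductal plate forms later in gestation than the stage sampled here.

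The 10 genes were present at low to moderate levels. Their summed level was 38.2 TPM in replicate 1 and 37.1 in replicate 2, where TPM, the usual transcript abundance unit, is a level corrected for length and scaled to the library. They lay between 0.910 and 9.33 TPM in single libraries, an 8.62-fold range between the highest and the lowest mean. Of the 10 genes, 9 reached 1 TPM in both libraries, against 53.5% of all protein-coding genes and 23.7% of all Ensembl genes. None reached 10 TPM in either library, a level that 31.5% of protein-coding genes and 13.0% of all Ensembl genes passed in both. The median of the 10 means was 2.31 TPM, beside 1.82 TPM over all protein-coding genes and 14.6 TPM over the 11789 that reached 1 TPM. In bulk tissue, few cells with much of a transcript and many cells with little of it cannot be told apart.

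**Figure D1:**
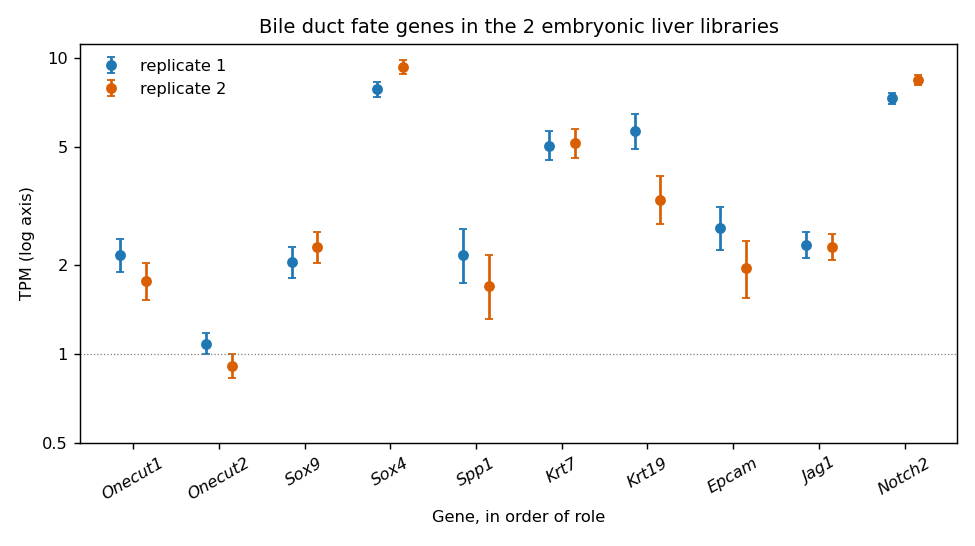
Level of each of the 10 genes in TPM on a log axis, with replicate 1 left of replicate 2. Points are single libraries, bars are exact 95% Poisson intervals of the count and the dotted line marks 1 TPM. Sox4 and Notch2 stand highest, Onecut2 lowest, and Krt19 has the widest gap between the pools.

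Ordered by mean level, the genes ran Sox4, Notch2, Krt7, Krt19, Jag1, Epcam, Sox9, Onecut1, Spp1 and Onecut2. Of the 9 neighbouring pairs in that order, 6 had ranges over the 2 libraries that overlapped. Among these 6, Sox4 stood above Notch2 within each library, at 7.82 against 7.30 TPM in replicate 1 and 9.33 against 8.41 in replicate 2. In none of the other overlapping pairs was the same gene higher in both libraries, so their order is not set by these data. The steps that did not overlap were Notch2 above Krt7, Krt19 above Jag1 and Spp1 above Onecut2. The genes therefore fell into an upper pair, a keratin pair, a group of 5 near 2 TPM, and Onecut2 alone at the bottom.

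Among the transcription factors, Sox4 was the highest and Onecut2 the lowest in both libraries. Onecut1, also called HNF6, is needed for the timing of duct formation in mice. It had 2.15 TPM in replicate 1 (245 expected counts, 95% interval 1.89 to 2.44 TPM) and 1.76 TPM in replicate 2 (197 counts, 1.52 to 2.02 TPM). The expected count is the number of reads the authors' quantification assigned to a gene. Each interval covers the counting error of reads only. It may be too narrow, since reads copied by PCR are not independent molecules. Onecut1 lies on chromosome 9, plus strand, from 74861921 to 74891781 (ENSMUSG00000043013.10). Its paralog Onecut2, which acts with it in the mouse liver, had 1.08 TPM in replicate 1 (570 counts, 0.993 to 1.17 TPM) and 0.910 TPM in replicate 2 (442 counts, 0.827 to 0.999 TPM). Onecut2 (ENSMUSG00000045991.19, chromosome 18, plus strand, 64340020 to 64400987) was the single gene of the 10 under 1 TPM in a library, and its interval in replicate 1 reached below 1 TPM as well. Onecut1 stood 1.99-fold above Onecut2 in replicate 1 and 1.93-fold above it in replicate 2 by TPM. The mean log2 of this ratio was 0.97, and 0.73 under the older GENCODE M4 annotation, so its size depends on the annotation. The remaining family member, Onecut3, had 0.240 TPM in replicate 1 and 0.280 in replicate 2.

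Sox9 encodes an HMG-box factor that marks the earliest duct cells of the mouse liver. It had 2.04 TPM in replicate 1 (269 counts, 1.80 to 2.30 TPM) and 2.29 TPM in replicate 2 (280 counts, 2.03 to 2.58 TPM), and the intervals overlap. It lies on chromosome 11, plus strand, from 112782224 to 112787760 (ENSMUSG00000000567.5). Sox4, which acts with Sox9 in duct morphogenesis in the mouse and is made by many other cell types, had 7.82 TPM in replicate 1 (1198.86 counts, 7.38 to 8.28 TPM) and 9.33 TPM in replicate 2 (1325 counts, 8.83 to 9.85 TPM). Sox4 thus exceeded Sox9 3.83-fold in replicate 1 and 4.07-fold in replicate 2 by TPM, with the libraries on the same side. Sox4 is a single-exon gene on chromosome 13, minus strand, from 28948919 to 28953713 (ENSMUSG00000076431.4), and 2616 of its bases are also exon of the lincRNA gene Gm26735 on the opposite strand. Gm26735 was assigned 59.14 counts in replicate 1 and 0 in replicate 2, and whether the counting used strand is not given in the sources used here, so the exact Sox4 counts are uncertain to that extent. Of their sequence relatives, Sox11 had 4.73 TPM in replicate 1 and 5.01 in replicate 2, and Sox10 had 0.240 TPM in replicate 1 and 0.140 in replicate 2.

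Because Notch signalling reaches the nucleus through the DNA-binding protein Rbpj, the 250 bases before each RefSeq start were searched on both strands for the letters TGGGAA of its core site. They were found in 1 of the 8 windows taken from 7 of the 10 genes, that of Sox4, 100 bases before the start. Onecut2, Sox9 and Krt19 were not among these 7. The same letters were found in 21.6% of all 32817 mouse windows of that length. The Sox4 window (RefSeq, GRCm38.p6, minus strand, chr13:28953700-28953949) is shown for this match, which is in capitals.
Sox4 upstream window: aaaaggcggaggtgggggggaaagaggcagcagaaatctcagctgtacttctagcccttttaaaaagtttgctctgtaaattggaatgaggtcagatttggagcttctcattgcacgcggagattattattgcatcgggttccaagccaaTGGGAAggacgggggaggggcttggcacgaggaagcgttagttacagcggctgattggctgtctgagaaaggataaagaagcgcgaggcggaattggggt
The letters ATTGAT, a core of Onecut sites, were found in 0 of the 8 windows and in 6.73% of all windows, and the letter strings searched do not overlap one another. A match is a description of the sequence and says nothing of binding in these livers.

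Spp1 encodes osteopontin, a secreted phosphoglycoprotein of bone matrix and of early duct epithelium that is also made by macrophages. It had 2.15 TPM in replicate 1 (92 counts, 1.73 to 2.64 TPM) and 1.69 TPM in replicate 2 (67 counts, 1.31 to 2.15 TPM), the fewest reads of the 10 genes. The libraries overlap within counting error. Spp1 lies on chromosome 5, plus strand, from 104435118 to 104441050 (ENSMUSG00000029304.14). It stood far below the hepatoblast product alpha-fetoprotein, which exceeded it 2442-fold in replicate 1 and 2997-fold in replicate 2 by TPM. The bone genes Ibsp, Dspp and Mepe, neighbours of Spp1 on chromosome 5, had 0 counts in both libraries, which allows up to 3 counts in each. A further neighbour on the list, Dmp1, had 0 counts in replicate 1 and 3 in replicate 2.

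All 7 receptor genes for osteopontin on the list reached 1 TPM and 6 of them reached 10 TPM in both libraries. The integrin genes Itgb1, Itga4, Itgb3 and Itgav led, with means ± SD of 109 ± 0.332, 31.9 ± 1.40, 29.1 ± 2.05 and 19.7 ± 1.11 TPM (n = 2). These receptor chains are shared by blood, endothelial and mesenchymal cells.

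The 7 annotated Spp1 transcripts were not resolved. The authors' best estimate placed all Spp1 counts of both libraries on Spp1-201 and 0 on the other 6. The posterior mean, the average over the divisions of reads that the quantification holds possible, gave Spp1-201 60.3% of Spp1 TPM in replicate 1 and 44.9% in replicate 2. The posterior SD of its count was 15.2 reads of the 92 assigned in replicate 1 and 14.6 of the 67 assigned in replicate 2. Spp1-202, with a posterior mean share of 10.9% in replicate 1 and 17.1% in replicate 2, differs from Spp1-201 within the coding sequence by an exon of 3 bases (chr5:104436901-104436903). The opening coding bases of both, from GENCODE M21 on mm10 (plus strand, chr5:104436389-104437720), are shown because so small a difference sets these transcripts apart. Capitals mark the short exon in Spp1-202 and the bases that meet at the junction in Spp1-201.
Spp1-202: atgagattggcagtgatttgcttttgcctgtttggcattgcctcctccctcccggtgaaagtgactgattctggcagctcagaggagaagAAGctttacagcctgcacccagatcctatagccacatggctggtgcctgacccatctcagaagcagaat
Spp1-201: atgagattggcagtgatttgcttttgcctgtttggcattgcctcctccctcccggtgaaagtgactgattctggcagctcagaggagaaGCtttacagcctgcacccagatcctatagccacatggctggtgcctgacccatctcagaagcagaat
The short exon adds 1 codon after 90 coding bases, so reads that do not cross that point cannot separate these coding sequences. The letters TATAAA were found in 1 of the 8 upstream windows, the first of the Spp1 windows (RefSeq, GRCm38.p6, plus strand, chr5:104434861-104435110), and in 12.4% of all windows. The match, in capitals, begins 211 bases before the start, and the window is shown for it.
Spp1 upstream window: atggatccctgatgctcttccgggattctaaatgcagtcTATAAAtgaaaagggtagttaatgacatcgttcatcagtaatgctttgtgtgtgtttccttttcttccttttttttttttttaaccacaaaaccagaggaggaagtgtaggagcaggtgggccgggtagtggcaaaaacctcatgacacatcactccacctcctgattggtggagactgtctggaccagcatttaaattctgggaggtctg

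Krt7 and Krt19 encode a type II and a type I keratin that pair in duct epithelium and are made by other simple epithelia and mesothelium too. Krt7 had 5.05 TPM in replicate 1 (306 counts, 4.50 to 5.65 TPM) and 5.14 TPM in replicate 2 (308 counts, 4.58 to 5.75 TPM), nearly equal between pools. Krt19 had 5.65 TPM in replicate 1 (221 counts, 4.93 to 6.45 TPM) and 3.31 TPM in replicate 2 (115 counts, 2.73 to 3.97 TPM), with intervals that do not overlap. The ratio of Krt7 to Krt19 was 0.894 in replicate 1 and 1.55 in replicate 2 by TPM, on opposite sides of equality. Krt7 lies on chromosome 15, plus strand, from 101411043 to 101430313 (ENSMUSG00000023039.17), and Krt19 on chromosome 11, minus strand, from 100140810 to 100148665 (ENSMUSG00000020911.14).

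The keratins of hepatoblasts and of simple epithelium in general stood well above the duct pair. Krt18 had 65.1 TPM in replicate 1 and 60.8 in replicate 2, and its partner Krt8 had 63.1 TPM in replicate 1 and 60.1 in replicate 2. Krt18 exceeded Krt19 11.5-fold in replicate 1 and 18.4-fold in replicate 2. Krt20 had 20.7 TPM in replicate 1 and 19.7 in replicate 2, above both duct keratins. Of the 16 sequence relatives of the 10 genes on the list, 8 reached 1 TPM and 3 reached 10 TPM in both libraries, and those 3 were these keratins. The basal keratin gene Krt5 had 0.0700 TPM in replicate 1 and 0.320 in replicate 2, on 5 and 20 counts.

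By the authors' best estimate of TPM, Krt7 and Krt19 were the genes spread over several transcripts. Of the 7 genes with more than 1 annotated transcript, 2 had at least 2 transcripts at 10% or more of the gene's TPM in both libraries, against 61.3% of the 11189 such genes at 1 TPM. The count was 3 by posterior mean TPM, at a share of 5%, and with either library alone, so that it is not fixed at these genes. For Krt7 these were Krt7-204 with 41.4% of Krt7 TPM in replicate 1 and 33.1% in replicate 2, Krt7-201 with 33.3% in replicate 1 and 39.7% in replicate 2, and Krt7-205, annotated without a coding sequence, with 12.9% in replicate 1 and 14.8% in replicate 2. The leading transcript thus changed between libraries on the TPM scale. On the count scale it did not, since Krt7-201 held 71.8% of Krt7 counts in replicate 1 and 79.8% in replicate 2.

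The scales part because Krt7-204 is 642 bases long and Krt7-201 is 4094 bases long. Krt7-204 rested on 37.1 counts in replicate 1 and 28.0 in replicate 2, with posterior SDs of 7.04 reads in replicate 1 and 6.74 in replicate 2. Krt7-203, Krt7-204 and Krt7-205 begin up to 1359 bases upstream of Krt7-201 and Krt7-202. That upstream start group took 60.0% of Krt7 TPM in replicate 1 and 56.6% in replicate 2, on 48.1 counts in replicate 1 and 41.8 in replicate 2. Krt7-204 does not hold the first 237 coding bases of Krt7-201, and 443 of the 1371 coding bases of Krt7-201 lie in its exons. The window before the downstream start (RefSeq, GRCm38.p6, plus strand, chr15:101412153-101412402) is shown because it lies between the start groups, with no match to the searched letters and so no capitals.
Krt7 upstream window: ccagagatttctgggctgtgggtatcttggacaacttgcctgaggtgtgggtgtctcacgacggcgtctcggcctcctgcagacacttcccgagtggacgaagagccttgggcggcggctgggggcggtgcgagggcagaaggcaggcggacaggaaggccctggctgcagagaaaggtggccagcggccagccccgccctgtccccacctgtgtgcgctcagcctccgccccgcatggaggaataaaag
The opening 120 coding bases of Krt7-201 (chr15:101412474-101412593) and of Krt19-201 (chr11:100145740-100145859, minus strand) are shown, from GENCODE M21 on mm10, because Krt7-204 and Krt19-203 lack them. The start codons are in capitals.
Krt7-201: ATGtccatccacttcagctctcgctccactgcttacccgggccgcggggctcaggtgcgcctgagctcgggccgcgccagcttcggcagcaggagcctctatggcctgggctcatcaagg
Krt19-201: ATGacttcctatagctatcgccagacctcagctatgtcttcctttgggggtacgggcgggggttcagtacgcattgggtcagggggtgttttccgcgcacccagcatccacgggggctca

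Krt19-201, the coding transcript, held 62.8% of Krt19 TPM in replicate 1 and 56.2% in replicate 2. Krt19-203, annotated without a coding sequence, held the other 37.2% in replicate 1 and 43.8% in replicate 2. It begins at position 100143699, downstream of the start of Krt19-201 at 100146120, and lacks its first 429 coding bases. Krt19-201 was assigned 171 counts in replicate 1 (posterior SD 11.9) and 83.3 in replicate 2 (posterior SD 9.09). Krt19-203 was assigned 49.7 counts in replicate 1 (posterior SD 11.7) and 31.7 in replicate 2 (posterior SD 8.80).

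Of 29 annotated transcripts of the 10 genes, 9 had 0 counts in both libraries. In Onecut1, Jag1 and Notch2 a single coding transcript held most of the TPM by the authors' best estimate. Onecut1-201 held 86.1% in replicate 1 and 93.8% in replicate 2, Jag1-201 held 91.8% in replicate 1 and 100% in replicate 2, and Notch2-201 held 95.6% in replicate 1 and 91.8% in replicate 2. In each of the 7 genes the leading transcript was annotated as protein-coding, while 9.25% of such genes among 10786 had a leading transcript that was not.

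**Figure D2:**
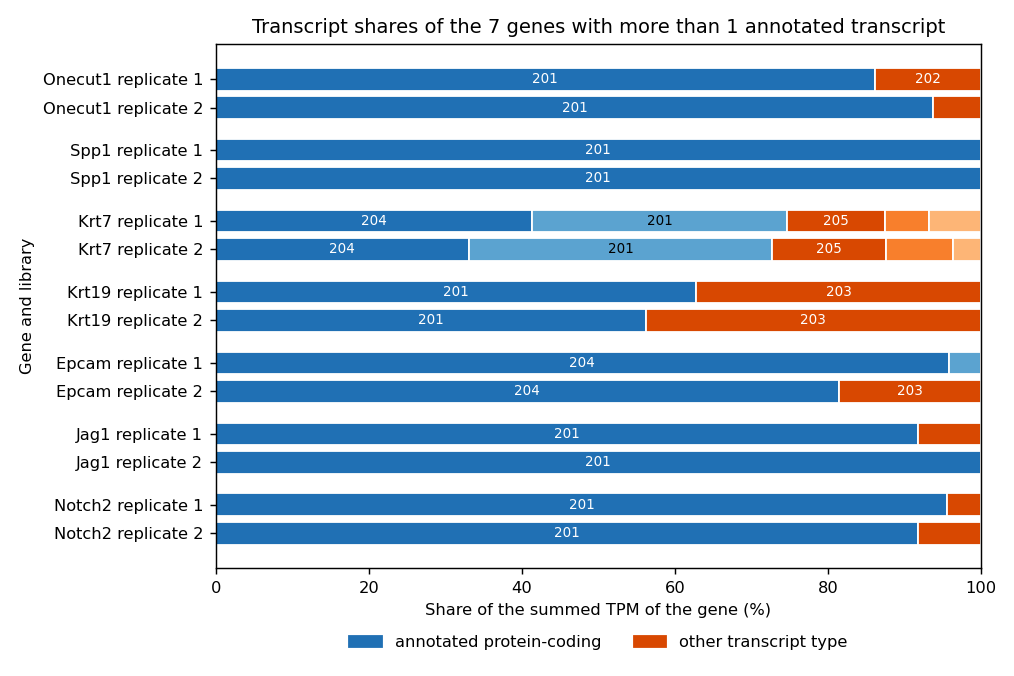
Share of each annotated transcript in the summed TPM of its gene by the authors' best estimate, in percent, for the 7 genes with more than 1 transcript, with replicate 1 above replicate 2. Blue shades are transcripts annotated as protein-coding, orange shades are other types, and numbers are the transcript suffixes. Krt7 and Krt19 are split in both libraries, and a single coding transcript leads the other genes, although Spp1-201 held 60.3% in replicate 1 and 44.9% in replicate 2 by the posterior mean.

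Epcam encodes a homophilic adhesion molecule of epithelial cells, found on early hepatoblasts and on duct cells. It had 2.66 TPM in replicate 1 (140 counts, 2.24 to 3.14 TPM) and 1.94 TPM in replicate 2 (84 counts, 1.55 to 2.40 TPM). The intervals overlap slightly. Epcam lies on chromosome 17, plus strand, from 87635979 to 87651129 (ENSMUSG00000045394.9).

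By the best estimate, most Epcam reads were assigned to a transcript that begins inside the annotated gene. Epcam-204 held 95.9% of Epcam TPM in replicate 1 and 81.4% in replicate 2, and its start lies 703 bases downstream of that of Epcam-201. By posterior mean TPM its share was lower, 82.3% in replicate 1 and 68.8% in replicate 2. Epcam-201 had 0 counts in both libraries, with a posterior SD of 5.37 counts in replicate 1 and 6.47 in replicate 2, and the other transcripts that begin with it had 2.99 counts in replicate 1 and 5.29 in replicate 2. The coding sequence of 945 bases is the same in Epcam-201 and Epcam-204, so the difference between them lies outside it. The window before the Epcam-201 start (RefSeq, GRCm38.p6, plus strand, chr17:87635729-87635978) is shown because the best estimate gave no read to the longest Epcam transcript, which begins there. It has no capitals, since none of the searched letter strings occurs in it.
Epcam upstream window: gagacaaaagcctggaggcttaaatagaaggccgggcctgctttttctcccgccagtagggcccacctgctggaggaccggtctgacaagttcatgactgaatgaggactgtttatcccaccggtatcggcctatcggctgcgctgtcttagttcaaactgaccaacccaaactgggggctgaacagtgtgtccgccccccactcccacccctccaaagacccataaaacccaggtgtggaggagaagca

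Jag1 encodes Jagged1, the ligand whose partial loss causes bile duct paucity in Alagille syndrome in humans. It had 2.33 TPM in replicate 1 (394 counts, 2.11 to 2.57 TPM) and 2.29 TPM in replicate 2 (382 counts, 2.07 to 2.53 TPM). It was the most even of the 10 genes between pools after TMM scaling, and lies on chromosome 2, minus strand, from 137081456 to 137116644 (ENSMUSG00000027276.7). Notch2 encodes the receptor most closely tied to duct formation in the mouse, and had 7.30 TPM in replicate 1 (2389.39 counts, 7.01 to 7.60 TPM) and 8.41 TPM in replicate 2 (2465.3 counts, 8.08 to 8.75 TPM). Notch2 lies on chromosome 3, plus strand, from 98013527 to 98150361 (ENSMUSG00000027878.11), and 541 of its exonic bases are shared with Gm42820 on the same strand, which was assigned 29.61 counts in replicate 1 and 10.7 in replicate 2. The receptor stood above the ligand by TPM, 3.13-fold in replicate 1 and 3.67-fold in replicate 2.

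Notch2 was the highest of the 4 Notch receptor genes in both libraries. Of the 7 ligand and receptor genes outside the 10, 5 reached 1 TPM in both libraries and none reached 10 TPM. Notch1 had 3.71 TPM in replicate 1 and 3.41 in replicate 2, Notch3 had 1.46 TPM in replicate 1 and 1.92 in replicate 2, and Notch4, a receptor of endothelium, had 1.41 TPM in replicate 1 and 1.64 in replicate 2. The endothelial ligand gene Dll4 had 2.55 TPM in replicate 1 and 2.57 in replicate 2, close to Jag1. Jag2 had 0.540 TPM in replicate 1 and 0.480 in replicate 2, and Dll3 had 0.260 TPM in replicate 1 and 0.0800 in replicate 2, so that Jag1 led the Jagged pair.

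The machinery that processes Notch was the most abundant of the Notch lists. All 13 genes of processing and modulation reached 1 TPM and 9 reached 10 TPM in both libraries, with a median of 17.7 TPM, beside 1.53 TPM for the ligands and receptors outside the 10. Dlk1, a non-canonical ligand and hepatoblast surface protein, had 448 ± 7.45 TPM (SD, n = 2). Adam10, the protease of the first cleavage, had 87.2 ± 3.36 TPM, and the gamma-secretase subunit genes Psenen and Ncstn had 71.7 ± 2.91 and 39.1 ± 1.39 TPM. The lowest were the glycosyltransferase gene Lfng with 6.58 ± 0.552 TPM and Numbl, an inhibitor of Notch, with 3.30 ± 0.0424 TPM. Dlk1 is also on the list of hepatoblast markers, and the secretase genes are used by many cell types.

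Of 10 nuclear effectors and targets of Notch, 7 reached 1 TPM and 2 reached 10 TPM in both libraries, with a median of 1.38 TPM. Those at 10 TPM were Rbpj with 12.2 ± 0.148 TPM and the target gene Hes1 with 10.5 ± 0.0778 TPM. The feedback inhibitor gene Nrarp had 5.09 ± 0.177 TPM and the coactivator gene Maml1 had 2.71 ± 0.0495 TPM. Hey2 had 0.410 TPM in replicate 1 and 0.540 in replicate 2. Hes5 was nearly undetected, with 4 counts in replicate 1 and 1 in replicate 2.

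Other transcription factors of the hepatobiliary lineage spanned a wider range of levels than the 4 among the 10 genes. Of these 16 genes, 15 reached 1 TPM and 5 reached 10 TPM in both libraries, with a median of 6.75 TPM. Hhex had 33.0 ± 0.573 TPM, Foxa3 had 21.8 ± 0.827 TPM, Gata4 had 21.1 ± 2.94 TPM and Hnf4a had 12.8 ± 0.219 TPM, all of them regulators of hepatoblasts. The lowest beside Onecut3 was Wwtr1, the Hippo pathway coactivator TAZ, with 1.67 ± 0.0141 TPM.

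Of 9 TGF-beta and activin ligand and receptor genes, 7 reached 1 TPM and 1 reached 10 TPM in both libraries, with a median of 5.87 TPM. The ligand gene Tgfb1 had 11.6 ± 0.403 TPM and the receptor genes Tgfbr1 and Tgfbr2 had 9.19 ± 0.566 and 5.88 ± 0.120 TPM. Tgfb3 had 5.15 TPM in replicate 1 and 8.25 in replicate 2. The activin subunit genes were low, with 0.610 TPM in replicate 1 and 0.520 in replicate 2 for Inhba and 0.140 TPM in replicate 1 and 0.200 in replicate 2 for Inhbb.

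Genes of duct cell transport, cilia and surface were uneven. Of 15 such genes, 8 reached 1 TPM and 2 reached 10 TPM in both libraries, with a median of 2.54 TPM. Tspan8, a tetraspanin of several epithelia, had 46.0 ± 1.27 TPM, the anion exchanger gene Slc4a2 had 13.8 ± 0.226 TPM, Prom1 had 10.4 ± 0.629 TPM and the polycystin gene Pkd1 had 5.21 ± 0.283 TPM. Under the older GENCODE M4 annotation Pkd1 had 2.18 TPM in replicate 1 and 2.10 in replicate 2, against 5.01 and 5.41 under M21. The secretin receptor gene Sctr, which marks mature duct cells, had 2 counts in replicate 1 and 1 in replicate 2, and Muc1 had 0 counts in replicate 1 and 7 in replicate 2. Most of the higher genes on this list are also made outside duct epithelium.

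**Figure D3:**
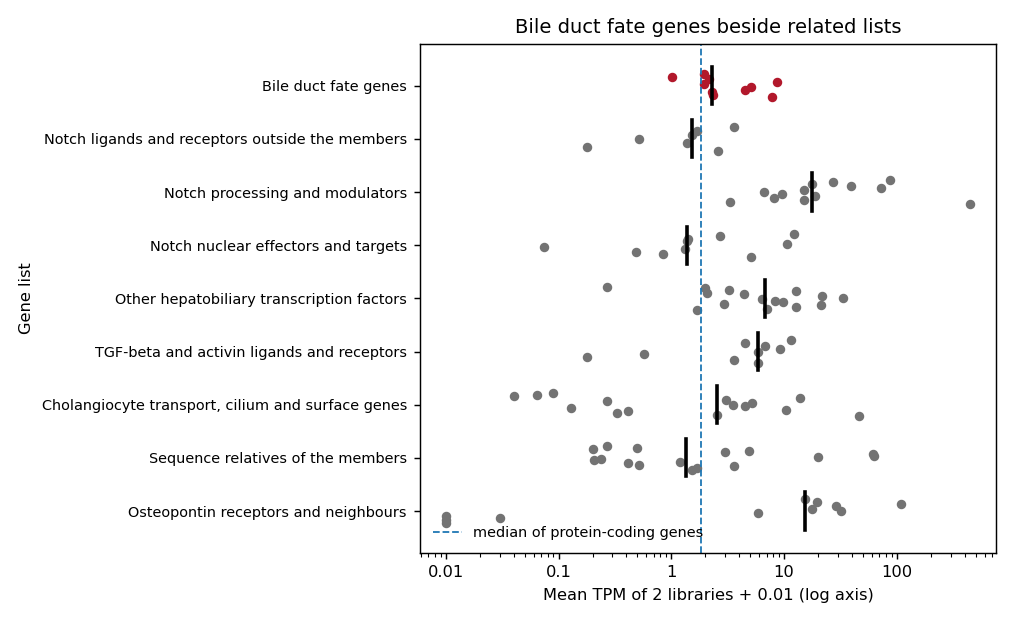
Mean TPM of the 2 libraries plus 0.01, on a log axis, for the 10 genes (red, top row) and for 8 lists of related genes (grey). Points are genes, black bars are list medians and the dashed line is the median of all protein-coding genes. The red points lie between 0.995 and 8.58 TPM, with a median of 2.31 TPM, and the Notch processing list has the highest median, 17.7 TPM.

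The liver itself was well marked and the 10 genes made up a small share beside it. The 10 hepatoblast markers all reached 1 TPM and summed to 7159 TPM in replicate 1 and 6968 in replicate 2, led by Afp and Alb. Mesothelial markers, from cells that also make keratins 7 and 19, summed to 44.2 TPM in replicate 1 and 47.1 in replicate 2. Of these 8 markers, 7 reached 1 TPM. Podxl and Alcam led and held much of the sum, with 19.3 and 6.98 TPM in replicate 1 and 20.5 and 7.85 in replicate 2. Markers of gut, pancreas and lung, tissues near the liver that make Epcam, Sox9 and duct keratins, summed to 12.9 TPM in replicate 1 and 12.4 in replicate 2. Of those 11 markers, 2 reached 1 TPM, Barx1 and Sox17, while Ptf1a and Nkx2-1 had 0 counts in both libraries. Barx1 had 6.57 TPM in replicate 1 and 5.98 in replicate 2, and Sox17 had 4.24 TPM in replicate 1 and 4.31 in replicate 2. The sum thus rests mainly on these 2 genes and does not stand for the list as a set. The other 9 markers were under 1 TPM in both libraries. Which cells gave the reads of each of the 10 genes was not tested.

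Other resident cells were present too, and several of them make some of the 10 genes. Endothelial markers, led by Egfl7 and Stab2, summed to 192 TPM in replicate 1 and 178 in replicate 2, and mesenchymal markers, led by Col3a1 and Col1a1, to 354 TPM in replicate 1 and 373 in replicate 2. Macrophage markers, led by Lyz2 and C1qb, summed to 255 TPM in replicate 1 and 254 in replicate 2. Megakaryocyte markers, led by Pf4 and Ppbp, summed to 1034 TPM in replicate 1 and 912 in replicate 2. The blood lists were held by progenitor markers, led by Cd34 and Kit, at 110 TPM in replicate 1 and 107 in replicate 2, and by red cell markers, led by Slc4a1 and Alas2, at 2701 TPM in replicate 1 and 2790 in replicate 2. No marker on these 6 lists was at 0 in both libraries.

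The genes stood in a different order by level and by read count, although Sox4 and Notch2 led on both scales. Expected counts grow with the length of a gene as well as with its level. Onecut2, with 16234 bases the longest, ranked 10 of 10 by TPM and 3 of 10 by count, with a mean of 506 counts. Spp1 ranked 9 by TPM and 10 by count. Krt19, the shortest at a mean of 1271 bases, ranked 4 by TPM and 8 by count. Notch2 had the most reads, with a mean of 2427 counts, and the narrowest interval relative to its level. The division of reads among genes added little to the error, since the posterior SD was under 1% of the count in both libraries for 8 of the 10 genes and at most 2.05% for Onecut1 and 1.86% for Sox4.

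**Figure D4:**
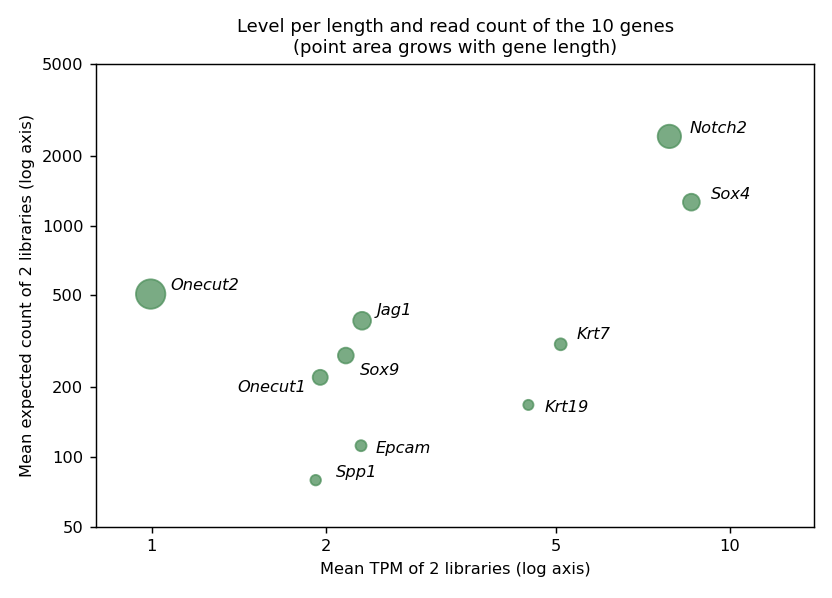
Mean expected count against mean TPM of the 2 libraries for the 10 genes, both on log axes, with point area growing with gene length. Onecut2 lies at 0.995 TPM but 506 counts, and Krt19 at 4.48 TPM but 168 counts.

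Between the pools, none of the 10 genes differed past 2-fold, and Krt19 and Epcam differed most. The median size of the difference was nonetheless larger over the 10 genes than over all genes compared, which were not matched to them for read count. Counts were scaled by TMM, a method that sets the bulk of genes equal between libraries, and a gene was called where replicate 1 over replicate 2 was past 2-fold while the scaled split fell outside the exact 95% binomial interval of its counts. Of the 10 genes 0 were called, against 2.35% of 17343 genes compared, made up of 0.992% higher in replicate 1 and 1.36% higher in replicate 2. Krt19 had the largest difference, with a log2 ratio of 0.82, or 1.77-fold (95% interval 1.41 to 2.24). Epcam followed with a log2 ratio of 0.62, or 1.54-fold (1.17 to 2.04). These were the 2 of the 10 genes past 1.5-fold, a size that 8.89% of all genes passed. In the ratio of TPM the log2 value was 0.77 for Krt19 and 0.45 for Epcam, so that Epcam was then under 1.5-fold. With a single library per pool, such intervals compare the libraries and hold no spread between livers.

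The other 8 genes stayed within 1.27-fold after TMM scaling. Spp1, Onecut2 and Onecut1 were higher in replicate 1, with log2 ratios of 0.34, 0.25 and 0.20. Jag1, Krt7, Notch2, Sox9 and Sox4 were lower in replicate 1, with log2 ratios of -0.07, -0.13, -0.16, -0.17 and -0.26. The direction for Jag1 turns under spike-in scaling and in the ratio of TPM, and the other 9 keep theirs under every scaling tried. Under spike-in scaling, however, Krt7 and Sox9 came to -0.003 and -0.05, close to no difference, and Spp1 came to 0.46. The binomial interval left out the scaled split in 5 genes, Onecut2, Sox4, Krt19, Epcam and Notch2, against 22.6% of all genes compared. Under spike-in scaling the 5 genes included Onecut1, at a log2 ratio of 0.32, in place of Notch2, at -0.04. The median size of the log2 ratio was 0.22 over the 10 genes and 0.10 over all genes compared, without matching for read count.

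**Figure D5:**
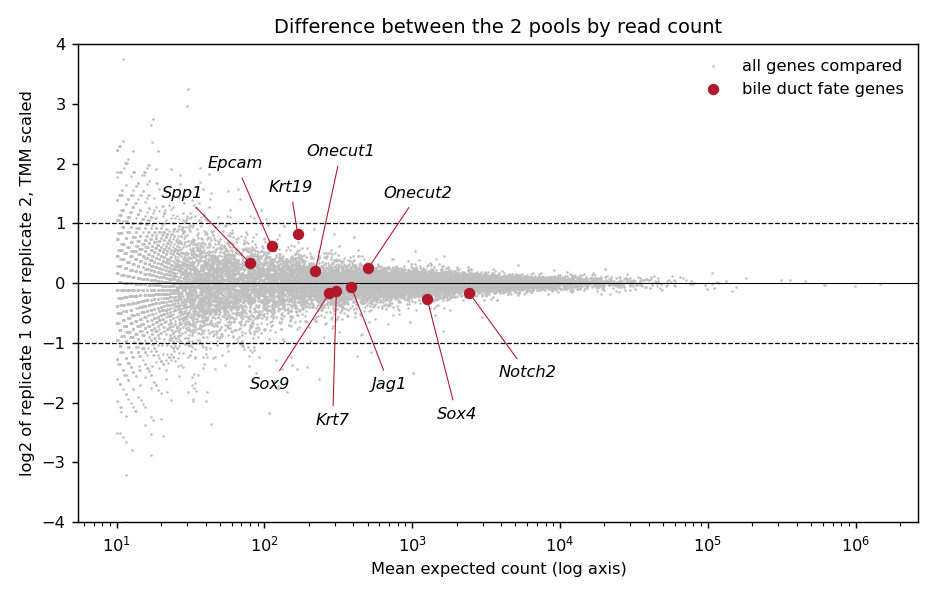
Log2 of replicate 1 over replicate 2 after TMM scaling against mean expected count on a log axis, for all 17343 genes compared (grey) and the 10 genes (red). Dashed lines mark 2-fold and 16 genes lie beyond the plotted range of 4. All 10 red points lie inside the dashed lines, with Krt19 and Epcam highest.

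Markers of other tissues also differed between the pools. Skeletal muscle markers, led by Mylpf and Acta1, summed to 35.1 TPM in replicate 1 and 45.9 in replicate 2, and 5 of 6 were called higher in replicate 2, a direction opposite to that of Krt19 and Epcam. Counts of the gut, pancreas and lung markers together stood at 1.07-fold in replicate 1 over replicate 2 and those of mesothelium at 0.913-fold. Of the 699 counts of the gut, pancreas and lung markers in replicate 1, Barx1 held 279 and Sox17 held 241. Of the 5 of these markers compared, 3 were higher in replicate 1 and 0 were called. The rest averaged under 10 counts and were not compared. On the duct cell list, Pkhd1, the fibrocystin gene of duct cilia, was the 1 gene called, with 48 counts in replicate 1 and 15 in replicate 2. On the TPM scale it had 0.290 in replicate 1 and 0.230 in replicate 2, which is not past 2-fold. Among the sequence relatives, Krt5 was the 1 gene called, higher in replicate 2. The part of these tissues in the Krt19 and Epcam differences was not tested.

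The same reads were also quantified by the authors with the older GENCODE M4 annotation. None of the 10 genes differed past 1.5-fold between M21 and M4 in both libraries, against 5.38% of 13620 genes compared. Under M21 8 of the genes were lower in both libraries, and the median log2 ratio of TPM + 1 was -0.04 in each library, as it was over all genes compared. Epcam was the single gene higher under M21 in both libraries, 1.18-fold in replicate 1 and 1.34-fold in replicate 2 by TPM. M4 held 1 Epcam transcript of 2040 bases and M21 held 5, and the count differed by 2 reads in each library. Onecut2 was lower under M21, at 0.800 of its M4 TPM in replicate 1 and 0.805 in replicate 2, with 16234 bases under M21 and 13391 under M4. Under M4 Onecut2 stood at 1.35 TPM in replicate 1 and 1.13 in replicate 2, above the level of 1 TPM that it missed in replicate 2 under M21.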

How the data were processed

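Liver RNA of 2 embryo pools was extracted with the mirVana kit, 10 ng per library was copied with the SMARTer Ultra Low kit, ERCC spike-ins were added and libraries were tagmented with Nextera, per the labels. The deposited expected counts are the authors' estimates of reads per gene or transcript, per the file headers. The deposited TPM values divide these by effective length and scale to a common library total with spike-ins included. The deposited posterior SDs and posterior means describe the uncertainty of that division. The notes deposited with the libraries name mm10, GENCODE M4 and GENCODE M21. Which aligner, quantifier, versions and strand setting were used is not given in the sources used here. Replicate 1 held 38293265 expected counts and replicate 2 held 35399872, with 4.99% and 5.40% of TPM in spike-ins. Entries with bare number identifiers, 26248 in all, were left out.

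M21 was used except where M4 is named. Counts rounded to whole numbers were scaled with TMM (edgeR 4.0.16), and genes averaging 10 counts or more were compared with a prior count of 0.5. Intervals are exact Poisson or exact binomial at 95%. The call was tested on simulated Poisson counts, which hold no spread beyond counting error, so that test does not cover such spread. Annotations were compared as log2 of TPM + 1. Transcript starts more than 100 bases apart were grouped separately. Upstream windows came from RefSeq (GRCm38.p6) and coding sequences from GENCODE M21. The alternatives tried were scaling by spike-ins, by total counts or with DESeq2 1.42.0, other filters and pseudocounts, rescaled or posterior mean TPM, M4, and single libraries.

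The 10 genes, 8 lists of related genes and 10 lists of cell type markers were chosen with earlier results of these data known. All 10 genes were named, as were up to 4 of the highest and 2 of the lowest genes of each related list, the leading transcript and others at 10% in both libraries, and the 2 highest cell markers with those at 0. Some list genes are not reported here by name.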

Additional observations from a re-analysis of the deposited data

How the results depend on the processing

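The median level of the 10 genes was 2.31 TPM and ranged from 2.29 to 2.50 TPM over the libraries taken singly. The counts of genes at 1 and 10 TPM, of genes called between pools or annotations, and of genes with several transcripts kept within 1.5 times their values under every alternative that could be run, although genes with several transcripts numbered 3, against 2, by posterior mean TPM, with either library alone and at a 5% share. The log2 ratio of Krt7 over Krt19 was -0.16 without replicate 2 and 0.63 without replicate 1, against 0.24 with both libraries. The log2 replicate ratio of Jag1, -0.07 after TMM scaling, was 0.051 under spike-in scaling, which raises all ratios by 0.12, and 0.025 in the ratio of TPM. The log2 annotation ratio of Notch2 was -0.0017 without replicate 2 and 0.045 without replicate 1, against 0.02 with both. The cause was not tested. With a mean count of at least 100, 9 of the 10 genes were compared and 18 of 12047 genes were called (0.149%), and with no count filter 753 of 27808 (2.71%), against 407 of 17343. Adding the counts of overlapping genes, chosen after seeing the data, moved the Sox4 log2 replicate ratio to -0.19, against -0.26. Rescaling TPM over genes present under both annotations was also chosen after seeing the data and turned no annotation ratio. No paired analysis was possible because there is 1 group, and the replicate ratio needs both libraries, so neither could be left out of it. Depth limits Spp1 most, with 92 and 67 counts.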
